A study of Mus musculus with 16 samples.

Results

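The 10 genes described here belong to the insulin, growth hormone and IGF axis of mouse liver and are 10 of the 19938 genes with a probe set of their own. They are the ligand Igf1, the growth hormone receptor Ghr, the insulin receptor Insr, the docking proteins Irs1 and Irs2, the binding proteins Igfbp1, Igfbp2, Igfbp3 and Igfbp4, and Igfals. A probe set was taken where the platform annotation names one of these genes and no other, and the probe set with the highest mean stood for its gene. All 10 passed the filter on dim signals and were among the 13152 genes tested.

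Total liver RNA of mice on strain 129 was hybridised to Affymetrix whole-transcript arrays. The genotypes, with 4 arrays each, were wild type, Rassf1a-/- (both copies of the Rassf1a isoform of Rassf1 lost), Sav1+/- (1 copy of Sav1, the adaptor of the Hippo pathway kinases, lost) and Rassf1a-/- Sav1+/-, called doubly altered below. All were whole liver with no stated treatment. The labels give neither sex, age, time of day nor feeding state, and do not say in which cells the alleles were lost or whether the arrays of a genotype came from separate animals, and the p-values cover the spread between the deposited arrays alone, which may be technical.

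Pituitary growth hormone binds its receptor on hepatocytes and, through Jak2 and Stat5, drives transcription of Igf1 and Igfals. Circulating IGF1 travels in a complex with IGFBP3 and the acid-labile subunit encoded by Igfals, while the smaller binding proteins hold it in other complexes. Insulin signals through its receptor and the docking proteins IRS1 and IRS2 to Akt, which keeps FoxO1 out of the nucleus and lowers transcription of FoxO1 targets such as Igfbp1 and Irs2. Growth hormone is released in pulses in male rodents and more evenly in females, and liver expression under it differs by sex.

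Values are the deposited log2 signals of a probe set, so that 1 unit is a factor of 2 in signal and levels of different genes are not compared. Pearson r between arrays lay between 0.924 and 0.975 over all probe sets. The 9 measured hepatocyte markers averaged 13.2 to 13.6 in every array, while 4 of the 6 measured cholangiocyte markers did not pass the filter. Sav1 averaged 8.53 where both copies were present in wild type, 7.64 in Sav1+/- and 7.65 in doubly altered livers, and every array with 1 copy read below every array with both. Rassf1 was -0.24 in Rassf1a-/- livers (adjusted p = 0.667), which checks nothing about the 1A isoform. On 5 arrays the mean of 3 Y-linked genes was 8.87 or more and Xist was at most 4.31. These were replicate 2 of Rassf1a-/-, replicates 3 and 4 of Sav1+/- and replicates 1 and 2 of Rassf1a-/- Sav1+/-. On the other 11 arrays, all 4 of wild type included, the Y-linked mean was at most 4.17 and Xist was at least 10.3. By these signals the 5 arrays read as male and the 11 as female, although the labels state no sex. Each comparison of an altered genotype with wild type was therefore unbalanced for this split. Sav1+/- replicate 2 stood apart for several of the genes described, being the highest Sav1+/- array for Irs1, Irs2, Insr, Igfbp1, Igfbp2, Igfbp4 and Igfals.

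None of the 10 genes passed the test in any genotype comparison, at an adjusted p under 0.05 over all genes tested. In Rassf1a-/- against wild-type livers 0 of 10 passed, where 0.7% of all genes did. In Sav1+/- livers it was 0 of 10, against 0% of all genes, and 1204 genes had an unadjusted p under 0.05 there. In Rassf1a-/- Sav1+/- livers 0 of 10 passed, against 0.821% of all genes. The counts were likewise 0 of 10 for the Rassf1a effect averaged over the Sav1 genotypes (2.23% of all genes), the averaged Sav1 effect (0.0228%), the interaction of both (0%, with 1236 genes at an unadjusted p under 0.05) and the F test of any genotype difference (1.86%). At an unadjusted p under 0.05 the axis had 2 genes in Rassf1a-/- (10.4% of all genes), 2 in Sav1+/- (9.15%) and 0 in doubly altered livers (13.6%). It had 1 for the averaged Rassf1a effect (15.3%), 0 for the averaged Sav1 effect (14.8%) and 2 for the interaction (9.4%). The median difference of the 10 genes from wild type was -0.04 for Rassf1a-/-, -0.10 for Sav1+/- and 0.03 for the doubly altered livers, beside -0.01, -0.02 and 0.05 over all genes tested. Against wild type, the arrays of a genotype separated only for Igfbp4 in Rassf1a-/- livers, as 10.9% of all genes did there. Between altered genotypes, Igf1 was 12.83 or more in Rassf1a-/- and 12.77 or less in Sav1+/- livers. Igfbp3 was 10.464 or more in doubly altered and 10.446 or less in Sav1+/- livers. The share of all genes that separated between altered genotypes was not computed.

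**Figure D1:**
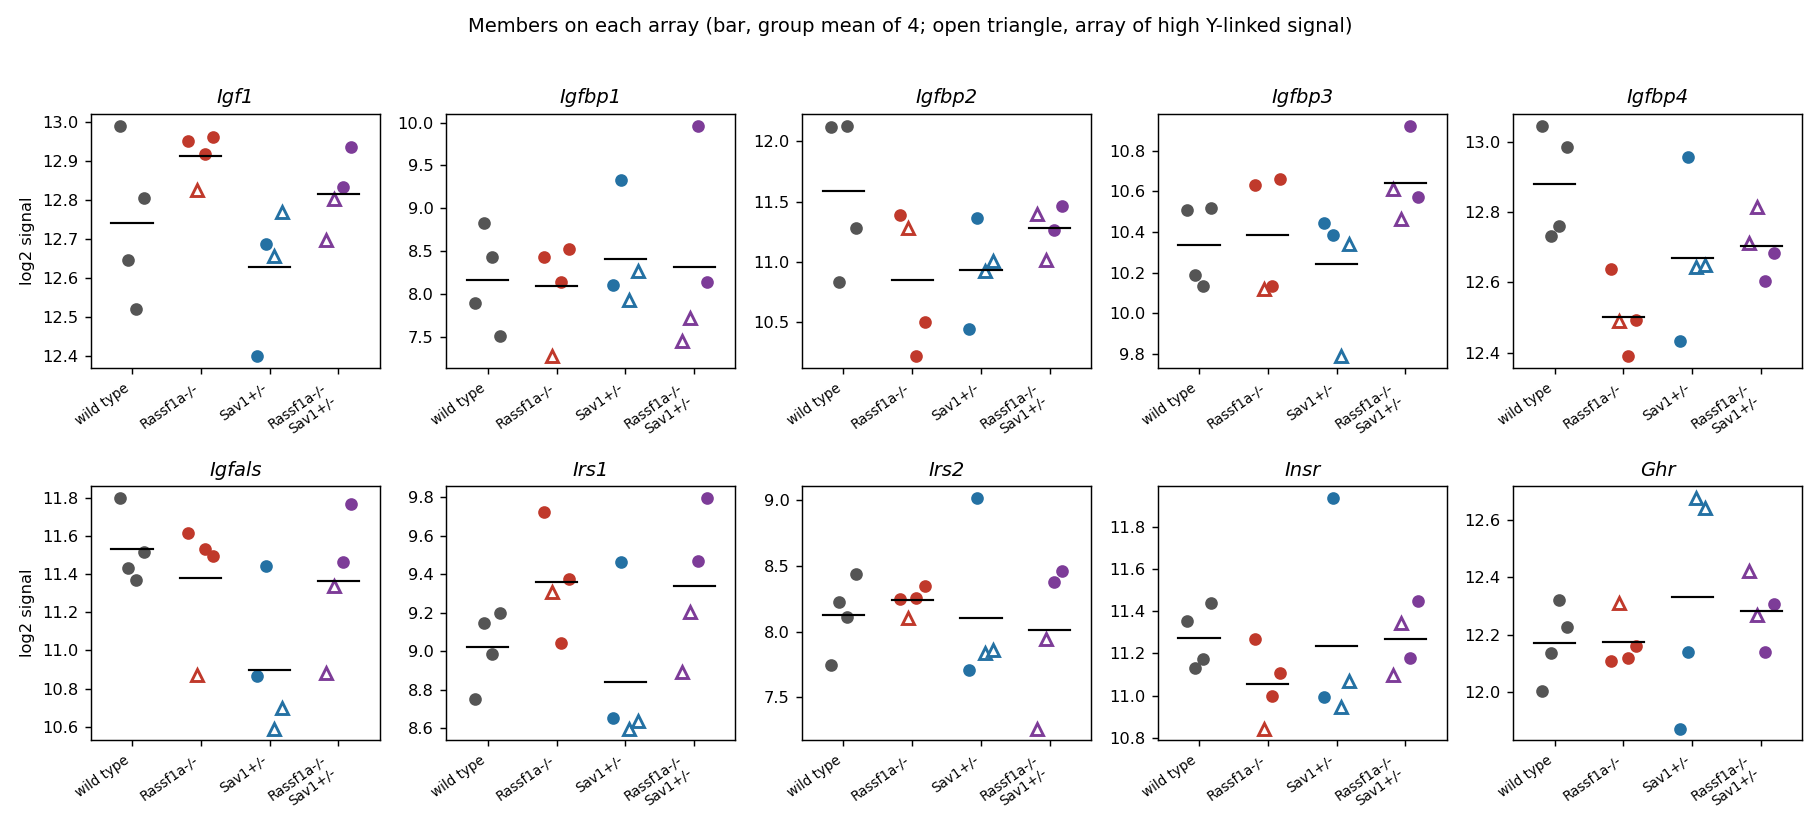
Log2 signal of the 10 genes (1 panel each, each with its own vertical axis) on the 16 arrays, by genotype on the horizontal axis; points are arrays, bars are group means of 4 and open triangles are the 5 high Y-linked arrays. The 4 Rassf1a-/- arrays lie below the 4 wild-type arrays for Igfbp4, and the open triangles lie low within their genotypes for Igfals.

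Igf1, the hormone that carries much of growth hormone's effect on growth, was steady over the livers. Its signal was 12.99, 12.65, 12.52 and 12.80 on the wild-type arrays and 12.95, 12.83, 12.92 and 12.96 on the Rassf1a-/- arrays. On the Sav1+/- arrays it was 12.40, 12.69, 12.66 and 12.77, and on the doubly altered arrays 12.70, 12.80, 12.83 and 12.94. The wild-type arrays spanned most of the range, and the Rassf1a-/- arrays all sat near its top. The means were in the order Rassf1a-/- (12.91 ± 0.06, SD, n = 4), Rassf1a-/- Sav1+/- (12.82 ± 0.10), wild type (12.74 ± 0.20) and Sav1+/- (12.63 ± 0.16). Averaged over the Sav1 genotypes, the Rassf1a difference was 0.18 (SE 0.09, 95% interval -0.01 to 0.37, adjusted p = 0.352), which did not pass. The spread of Igf1 within genotypes, an SD of 0.14, lay at the 5.70th percentile of all genes tested. That percentile takes no account of brightness, and the mean signal of Igf1 lay at the 98.6th percentile. Igfbp4, with a mean at the 98.3rd, had its spread within genotypes at the 7.08th.

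Ghr, the receptor that starts this signal in the hepatocyte, was highest on average in Sav1+/- livers (12.33 ± 0.39, SD, n = 4), followed by the doubly altered (12.28 ± 0.12), Rassf1a-/- (12.18 ± 0.09) and wild-type livers (12.17 ± 0.14). The Sav1+/- arrays read 11.88, 12.14, 12.68 and 12.64. Those 4 arrays held both the lowest and the highest Ghr signal of the study, and its 2 high arrays were also those with high Y-linked signal. The 95% intervals of the differences from wild type ran from -0.34 to 0.34 for Rassf1a-/-, from -0.18 to 0.50 for Sav1+/- and from -0.23 to 0.45 for the doubly altered livers.

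Igfals encodes the liver-made subunit that keeps IGF1 and IGFBP3 in the circulation. Its promoter is shown because Igfals had the clearest relation of the 10 genes to the Y-linked signal of the arrays, and because a match to the letters TTCNNNGAA, the consensus bound by Stat5, lies in it. The window (RefSeq, GRCm38.p6, chr17:24877981-24878280, plus strand) runs from 250 bases before to 50 bases after an annotated start, with the match in capitals, 58 bases before the start. The motif reads the same on both strands and occurs in 8.30% of 32851 such windows of all genes. A second Igfals window holds another match and a further one none.
Igfals: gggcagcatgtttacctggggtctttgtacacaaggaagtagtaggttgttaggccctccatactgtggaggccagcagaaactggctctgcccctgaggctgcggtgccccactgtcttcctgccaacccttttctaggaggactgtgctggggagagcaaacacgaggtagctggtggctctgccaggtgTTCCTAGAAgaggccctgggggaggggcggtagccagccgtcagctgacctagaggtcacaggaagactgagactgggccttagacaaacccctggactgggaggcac

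The Igfals signal was 11.80, 11.43, 11.37 and 11.51 on the wild-type arrays and 11.61, 10.87, 11.53 and 11.49 on the Rassf1a-/- arrays. It was 10.87, 11.44, 10.59 and 10.70 on the Sav1+/- arrays and 10.88, 11.34, 11.46 and 11.77 on the Rassf1a-/- Sav1+/- arrays. Among Sav1+/- arrays 3 lay below every wild-type array, and replicate 2 lay among them. Igfals was -0.63 in Sav1+/- against wild-type livers (SE 0.22, 95% interval -1.09 to -0.17), with an unadjusted p of 0.0102 and an adjusted p of 0.347. Without Sav1+/- replicate 2 the difference was -0.81 (adjusted p = 0.111). Of the Sav1+/- arrays 2 had high Y-linked signal and no wild-type array did: adding the Y-linked mean to the model gave a difference of -0.32 (adjusted p = 0.754), and leaving out the 5 high Y-linked arrays gave -0.37 (adjusted p = 0.789). Averaged over the Rassf1a genotypes the Sav1 difference was -0.32 (adjusted p = 0.339), or -0.11 with the Y-linked term (adjusted p = 0.748). The interaction was 0.61 (SE 0.31, adjusted p = 0.557). Of the doubly altered arrays, replicates 1 and 2, both of high Y-linked signal, also lay below every wild-type array. Their genotype's mean was 11.36 ± 0.37 against 10.90 ± 0.38 in Sav1+/- livers (SD, n = 4 each), with overlapping ranges.

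Igfbp3 encodes the main carrier of circulating IGF1 and, in rodent liver, is made mostly by cells other than hepatocytes. Its mean was highest in Rassf1a-/- Sav1+/- livers (10.64 ± 0.20, SD, n = 4), then came Rassf1a-/- (10.39 ± 0.30), wild-type (10.34 ± 0.21) and Sav1+/- livers (10.24 ± 0.31). The doubly altered arrays read 10.61, 10.46, 10.92 and 10.57, against 10.51, 10.19, 10.13 and 10.52 in wild type. They were 0.31 above wild type (SE 0.18, 95% interval -0.07 to 0.69), which did not pass, with overlapping ranges. Markers of several non-hepatocyte cells were higher by their medians in the same comparison, by 0.42 for 10 Kupffer cell, 0.42 for 4 lymphocyte and 0.26 for 10 sinusoidal endothelial markers, with 0.01 for 10 stellate cell markers, and 0 of them passed. Their part in the Igfbp3 difference was not tested. In whole liver, more cells of a type and more RNA per cell cannot be told apart.

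Igfbp4, a binding protein that withholds IGF1 from its receptor until it is cleaved, was the one gene of the 10 whose arrays separated a genotype from wild type. Its signal was 13.05, 12.73, 12.76 and 12.99 on the wild-type arrays and 12.64, 12.49, 12.39 and 12.49 on the Rassf1a-/- arrays. It was 12.43, 12.96, 12.64 and 12.65 on the Sav1+/- arrays and 12.71, 12.82, 12.60 and 12.68 on the Rassf1a-/- Sav1+/- arrays. All 4 Rassf1a-/- arrays lay below all 4 wild-type arrays, and the other genotypes lay across both ranges. A separation of this kind was found for 1 of the 10 genes and for 10.9% of all genes in that comparison. The share was 0 of 10 in Sav1+/- (4.68% of all genes) and 0 of 10 in Rassf1a-/- Sav1+/- livers (10.8%). Igfbp4 was -0.38 in Rassf1a-/- livers (SE 0.13, 95% interval -0.65 to -0.11, unadjusted p = 0.00908, adjusted p = 0.27). It was -0.21 in Sav1+/- and -0.18 in Rassf1a-/- Sav1+/- livers, and the interaction was 0.41 (SE 0.18, adjusted p = 0.499). With arrays weighted by how closely they followed their genotype's means over the genes tested, the difference in Rassf1a-/- livers was -0.35 and passed (adjusted p = 0.0364). Such weights come from the same signals and are no separate measure of quality. Adding the Y-linked mean left it at -0.39.

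Igfbp2, a binding protein made by hepatocytes, had its highest signals in wild type. The wild-type arrays read 12.12, 10.84, 12.13 and 11.28, and so differed among themselves by 1.29. The Rassf1a-/- arrays read 11.39, 11.28, 10.22 and 10.50. The Sav1+/- arrays read 10.44, 11.37, 10.93 and 11.01, and the doubly altered arrays 11.40, 11.02, 11.26 and 11.46. Both single genotypes had lower means than wild type, but wild-type replicates 2 and 4 lay inside the ranges of both. Igfbp2 was -0.74 in Rassf1a-/- livers (SE 0.30, unadjusted p = 0.0252, adjusted p = 0.381). The difference was -0.65 for Sav1+/- (unadjusted p = 0.0453, adjusted p = 0.537) and -0.31 for the doubly altered livers (95% interval -0.94 to 0.33). The interaction was 1.09 (SE 0.43, 95% interval 0.19 to 1.99, unadjusted p = 0.0207, adjusted p = 0.455), the largest of the 10 genes. Leaving out single wild-type arrays moved the Rassf1a-/- difference between -0.99 (without replicate 2) and -0.56 (without replicate 3), none of which passed.

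Igfbp1, the binding protein that follows insulin and fasting from hour to hour, varied most within genotypes. Its promoter is shown for the letters CAAAACAA, the core of the insulin response element to which FoxO1 binds, searched on both strands and found in 2.51% of windows. The match, in capitals, lies 108 bases before the start (RefSeq, GRCm38.p6, chr11:7197537-7197836, plus strand).
Igfbp1: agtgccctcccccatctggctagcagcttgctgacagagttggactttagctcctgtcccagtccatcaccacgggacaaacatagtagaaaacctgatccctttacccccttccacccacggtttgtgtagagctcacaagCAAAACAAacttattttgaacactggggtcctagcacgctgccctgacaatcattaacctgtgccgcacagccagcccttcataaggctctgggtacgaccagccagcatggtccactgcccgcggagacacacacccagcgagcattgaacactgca

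The Igfbp1 signal ranged from 7.27 to 9.96 over the 16 arrays. The wild-type arrays read 7.89, 8.82, 8.43 and 7.52 and the Rassf1a-/- arrays 8.43, 7.27, 8.14 and 8.53. The Sav1+/- arrays read 8.10, 9.33, 7.92 and 8.27 and the Rassf1a-/- Sav1+/- arrays 7.46, 7.72, 9.96 and 8.14. Every genotype held low and high arrays, and the means of 8.17, 8.09, 8.41 and 8.32 lay closer together than the arrays of any one genotype. The SD within genotypes was 0.76, at the 98.5th percentile of all genes tested. The 95% intervals of the differences from wild type spanned -1.06 to 0.91, -0.74 to 1.23 and -0.83 to 1.14, so that these arrays left each difference uncertain by about 1 unit either way.

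Insr, which encodes the insulin receptor, had nearly equal means in wild-type (11.28 ± 0.15, SD, n = 4), doubly altered (11.27 ± 0.16) and Sav1+/- livers (11.24 ± 0.47) and a lower one in Rassf1a-/- livers (11.06 ± 0.18). Sav1+/- replicate 2 at 11.94 was far above the other Sav1+/- arrays, which read 10.99, 10.94 and 11.07. The intervals of its differences from wild type reached from -0.62 to 0.18, from -0.44 to 0.36 and from -0.41 to 0.39. A second Insr probe set gave -0.16, 0.05 and 0.00 for the same differences, each with an SE of 0.23.

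Irs1 and Irs2 encode the docking proteins that link the activated receptor to phosphoinositide 3-kinase. Their promoters are shown together because both genes rose and fell together over the arrays, as described below, and because both windows hold the insulin response core on the other strand (TTGTTTTG) and an E-box (CACGTG, found in 7.15% of windows), in capitals. In Irs1 (RefSeq, GRCm38.p6, chr1:82291390-82291689, minus strand) the core lies 33 bases and the E-box 115 bases before the start. In Irs2 (chr8:11008880-11009179, minus strand) they lie side by side, 38 and 44 bases before the start.
Irs1: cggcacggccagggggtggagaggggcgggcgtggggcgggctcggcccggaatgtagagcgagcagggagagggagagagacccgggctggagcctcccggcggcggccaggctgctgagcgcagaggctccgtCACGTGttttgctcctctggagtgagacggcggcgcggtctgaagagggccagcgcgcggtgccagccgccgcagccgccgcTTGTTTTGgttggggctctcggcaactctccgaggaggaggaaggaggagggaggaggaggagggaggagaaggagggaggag
Irs2: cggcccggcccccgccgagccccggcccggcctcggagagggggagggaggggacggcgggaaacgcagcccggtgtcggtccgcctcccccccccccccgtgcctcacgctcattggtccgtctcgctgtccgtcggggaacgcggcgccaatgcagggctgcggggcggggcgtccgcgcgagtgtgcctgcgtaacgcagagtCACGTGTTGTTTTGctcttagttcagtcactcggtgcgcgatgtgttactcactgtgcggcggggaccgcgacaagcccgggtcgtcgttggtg
In the other windows Igfbp2 had an E-box and Igf1, Igfbp3, Igfbp4 and Ghr had none of the 4 motifs searched, the fourth being the D-box letters TTATGTAA of clock output genes (0.938% of windows).

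The Irs1 signal was 8.75, 9.14, 8.98 and 9.20 on the wild-type arrays and 9.72, 9.30, 9.04 and 9.37 on the Rassf1a-/- arrays. It was 8.65, 9.46, 8.60 and 8.64 on the Sav1+/- arrays and 8.89, 9.20, 9.47 and 9.80 on the Rassf1a-/- Sav1+/- arrays. Both genotypes without Rassf1a had higher means than both with it, and all ranges overlapped. Averaged over the Sav1 genotypes, Irs1 was 0.42 higher without Rassf1a (SE 0.16, 95% interval 0.09 to 0.75, unadjusted p = 0.0148), the smallest p of the 10 genes in that comparison, but it did not pass (adjusted p = 0.179). It was 0.34 in Rassf1a-/- and 0.32 in Rassf1a-/- Sav1+/- livers against wild type. Without Sav1+/- replicate 2 the averaged difference was 0.52 and passed (adjusted p = 0.0381). A second, dim Irs1 probe set that was not tested among the genes gave 0.30 (SE 0.18) for the averaged difference.

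Irs2, which also answers to fasting through FoxO1, was ordered Rassf1a-/- (8.24 ± 0.10, SD, n = 4), wild type (8.13 ± 0.29), Sav1+/- (8.11 ± 0.61) and doubly altered (8.01 ± 0.55), all within the spread of single genotypes. The Sav1+/- arrays read 7.71, 9.02, 7.84 and 7.86, with replicate 2 alone at the top. The doubly altered arrays read 7.26, 7.94, 8.38 and 8.46, of which the first was below its array's filter level. The intervals of the differences from wild type reached from -0.47 to 0.70, from -0.61 to 0.57 and from -0.70 to 0.47.

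**Figure D2:**
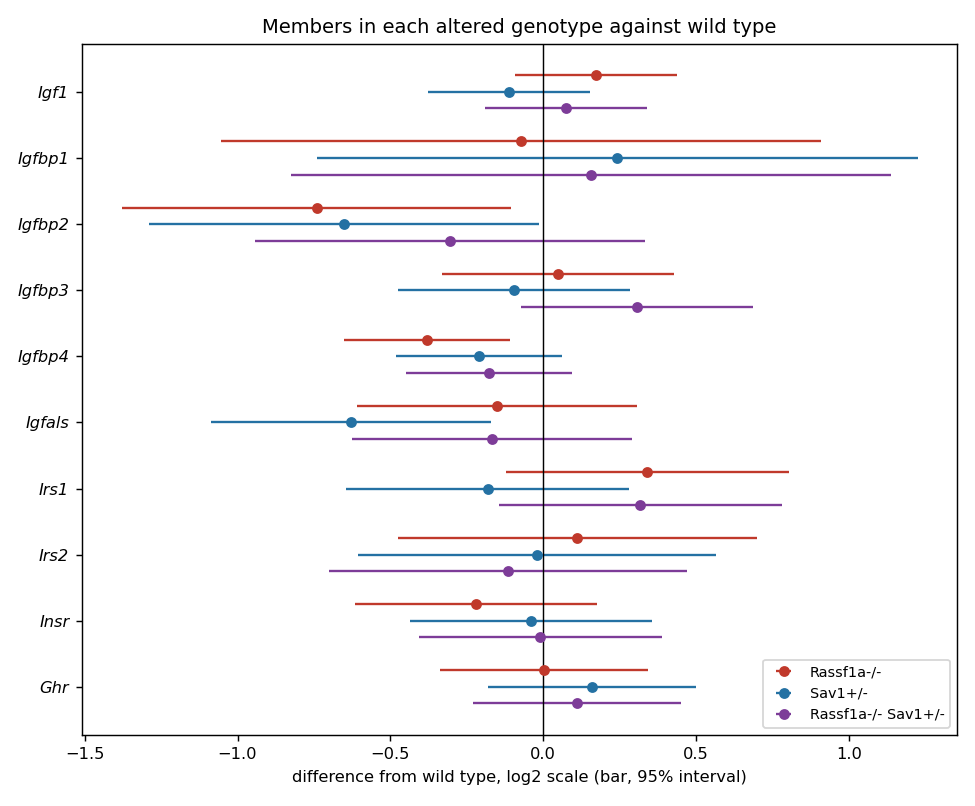
Difference of each altered genotype from wild type on the log2 scale (horizontal axis) for the 10 genes; points are limma estimates from 4 arrays against 4 and bars are 95% intervals, not adjusted for the number of genes. The intervals of Igfbp4 and Igfbp2 in Rassf1a-/-, and of Igfbp2 and Igfals in Sav1+/- livers lie below 0, and none of these passed after adjustment; the 3 differences of a gene share the wild-type arrays.

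The signal of the axis was next set against the Y-linked mean within genotypes, because growth hormone secretion differs by sex. Igfals was the 1 gene of the 10 that passed this test, where 4.71% of all genes did. Its slope was -0.095 on the log2 scale per log2 unit of the Y-linked mean (SE 0.023, adjusted p = 0.020). High Y-linked arrays were lower by 0.56 on average than the other arrays of their genotype (difference -0.56, SE 0.13, 95% interval -0.83 to -0.28, 1.47-fold, adjusted p = 0.0158, with 4.73% of all genes called). In Rassf1a-/- livers the array of high Y-linked signal read 10.87 against 11.49 to 11.61 for the rest. In Sav1+/- livers the high pair read 10.59 and 10.70 against 10.87 and 11.44, and in Rassf1a-/- Sav1+/- livers 10.88 and 11.34 against 11.46 and 11.77. Igfals thus lay lower on the high Y-linked arrays in all 3 genotypes that held both kinds. The slope kept its direction in each fit that left out 1 array but did not pass without Rassf1a-/- replicate 2 (adjusted p = 0.127), Sav1+/- replicate 3 (0.0521), Rassf1a-/- Sav1+/- replicate 1 (0.0704) or Rassf1a-/- Sav1+/- replicate 4 (0.0594).

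Of the other 9 genes, 4 had an unadjusted p under 0.05 for the slope, where 13.3% of all genes did, and none passed. Igfbp1 was -1.05 on the high Y-linked arrays (95% interval -1.69 to -0.42, adjusted p = 0.0575). It reached an adjusted p of 0.0318 for the slope with weighted arrays, 0.0287 without Sav1+/- replicate 1 and 0.0243 without Rassf1a-/- Sav1+/- replicate 4. Irs2 was -0.53 (adjusted p = 0.186) and Irs1 -0.39 (adjusted p = 0.256), and their slopes passed without Sav1+/- replicate 1 (adjusted p = 0.0182 and 0.0352). Ghr was the one with the opposite sign, at 0.33 (95% interval 0.09 to 0.57, adjusted p = 0.145). Its 5 high Y-linked arrays read 12.27 to 12.68 and the other 11 read 11.88 to 12.32. Igfbp3 was -0.30 (95% interval -0.59 to -0.01, unadjusted p = 0.0427 here and 0.083 for the slope, adjusted p = 0.331) and Insr -0.28 (-0.59 to 0.04). Igf1 itself was -0.02 (95% interval -0.26 to 0.22), Igfbp4 0.02 (-0.22 to 0.26) and Igfbp2 0.12 (-0.42 to 0.67).

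**Figure D3:**
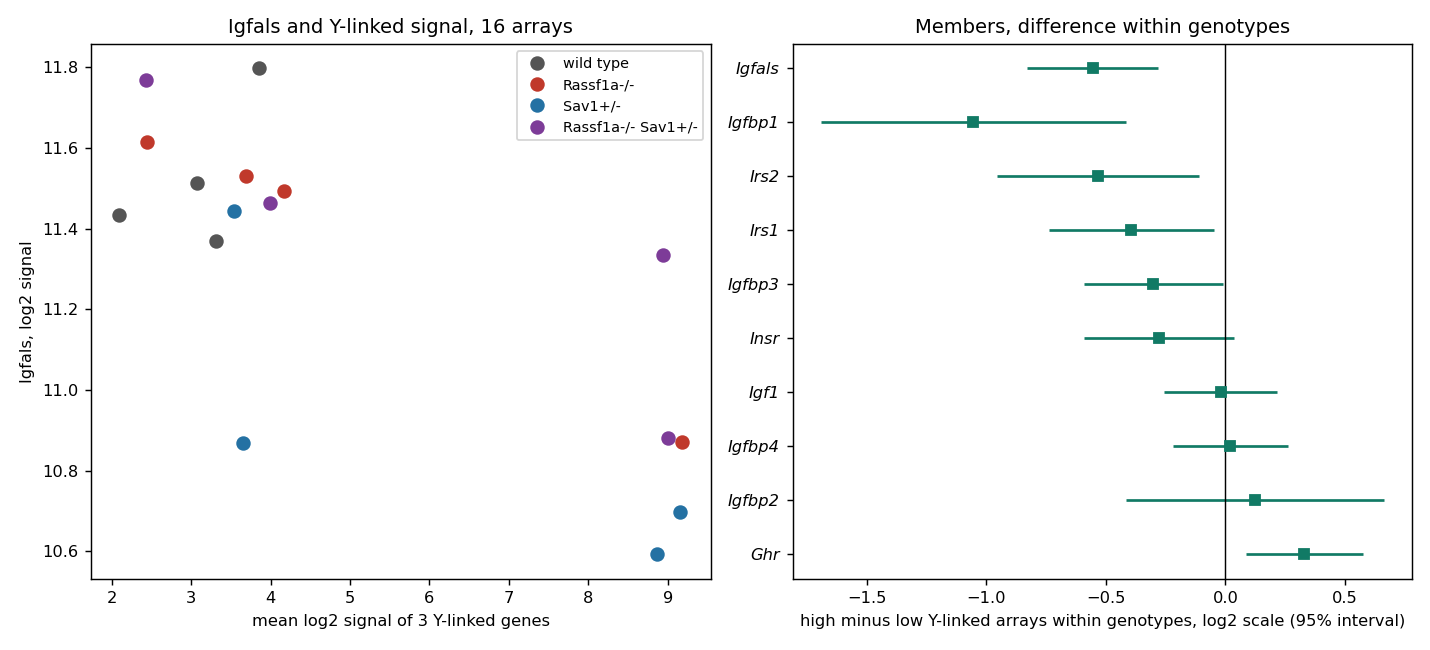
Left, Igfals log2 signal (vertical axis) against the mean log2 signal of 3 Y-linked genes (horizontal axis) on the 16 arrays, coloured by genotype. Right, the difference of high from low Y-linked arrays within genotypes for the 10 genes (log2 scale, 95% intervals not adjusted for the number of genes); Igfals at -0.56 passed after adjustment, and Ghr lay on the other side of 0 at 0.33.

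Known sex-biased targets of growth hormone, listed beside the axis, moved with the same arrays. With the Y-linked mean, 4.71% of all genes passed. Of the male-biased genes 9 of 11 tested rose, and of the female-biased genes 9 of 9 tested fell. Some lay below the filter where low: Cyp4a12a read 3.12 to 4.22 on the wild-type arrays, whose filter levels were 7.25 to 7.43. Such a gene passed the filter only through the arrays where it was high, so these counts are descriptions and no test of the lists. The lists of growth hormone signalling, of inhibitors of insulin signalling and of insulin and FoxO1 targets had 1 gene each, of 12 to 14. Genes downstream of the insulin receptor had 0 of 27, and other IGF ligands, receptors and binding proteins 0 of 9. These counts are near the 4.71% of all genes and say nothing of the lists. In the growth hormone signalling list 1 of 12 genes passed. This was Socs2, the feedback inhibitor that growth hormone induces, which read 9.04 to 10.6 on the high Y-linked arrays and 9.98 to 11.7 on the others, a fall by 1.75 within genotypes (95% interval -2.31 to -1.19, adjusted p = 3e-04). Bcl6, a repressor that is male-biased in liver, was 1.26 (adjusted p = 0.25). In the list of inhibitors of insulin signalling 1 of 13 passed: Grb10, an adaptor that dampens insulin and IGF receptors, fell by 2.08 (4.22-fold, adjusted p = 1.68e-06), from 8.04 to 9.53 on the 11 arrays to 6.43 to 7.18 on the 5. Those 5 values lay below the filter level of their own array. Grb10 thus passed the filter through the other arrays alone, and the size of its fall is uncertain. Of 14 insulin and FoxO1 targets 1 passed for the slope, Ppargc1a, a coactivator of fasting genes, which fell by 0.72 between low and high arrays (adjusted p = 0.00631). Pnpla3, a lipogenic gene, passed between low and high arrays (-0.86, adjusted p = 0.0344) but not for the slope (adjusted p = 0.102). Its lowest array in each genotype, at 6.56 to 6.94, lay below the filter levels of 7.16 to 7.44. It was thus near the filter, and the size of its fall is uncertain too. Whether it passed the filter only through the low Y-linked arrays was not checked. For Grb10 and Ppargc1a all 5 high Y-linked arrays lay below all 11 others, which was not so for Igfals. Both genes were named because they passed on this same split, and the share of all genes separated in this way was not computed. The part of the Y-linked split in the genotype differences of these genes was not tested beyond the fits that added the Y-linked mean or left out the 5 arrays.

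Over the arrays the genes of the axis moved in part together. Irs1 and Irs2 had a Pearson r of 0.70 and a Spearman rho of 0.78 over 16 arrays, 0.88 after genotype means were removed, and 0.71 over the 11 arrays of low Y-linked signal. The other 5 arrays are too few for a correlation of their own. Leaving out Sav1+/- replicate 2 and Rassf1a-/- Sav1+/- replicate 1, the arrays farthest from the median of Irs2, gave 0.82. Igfbp4 and Insr had an r of 0.73 (0.73 over the 11 arrays), Igfbp2 and Igfbp4 0.68, and Igfals and Irs1 0.63. Igfals and Ghr had an r of -0.59 over the 16 arrays, which pools high and low Y-linked arrays. Within genotypes the high Y-linked arrays were lower for Igfals (-0.56) and higher for Ghr (0.33), so this r includes that split. Whether both genes run opposite ways apart from the split was not tested. Igf1 and Ghr showed no common movement (r = -0.05). These are 6 of the 45 pairs of the 10 genes, given as descriptions; the points share their array's processing and its RNA.

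Genes most like each member over the 16 arrays were found by Pearson r among all genes tested. Igfbp3 was most like Oit3 (r = 0.90, rho 0.92) and Clec14a (0.89), both endothelial genes, and Prelp (0.86). Its r with Oit3 was 0.91 over the 11 arrays of low Y-linked signal and 0.89 without Rassf1a-/- Sav1+/- replicates 3 and 4. All 10 sinusoidal endothelial markers had an r of 0 or more with Igfbp3, with a median of 0.41, but that median was 0.47 for Insr and 0.42 for Irs1, so the list as a whole did not set Igfbp3 apart. The median r of Igfbp3 was also 0.42 with 10 stellate cell markers and 0.27 with 10 Kupffer cell markers. The liver-expressed Sdc1 (0.95), Btd (0.93) and Cyp2a12 (0.92) were most like Igfals, and Cyp2j9 (0.92), Ugt2b35 (0.92) and Cyp2d12 (0.89) most like Ghr. Insr was most like Dpp4, Asah1 (both 0.95) and Erap1 (0.94), Igfbp2 most like Hsd17b6 (0.90), Apoa1 (0.87) and Elovl2 (0.85), and Igfbp4 most like Lpcat3 (0.93), Abcc3 (0.92) and Gpld1 (0.91). For Irs1 it was Ndufaf7 (0.92), for Irs2 Efnb2 (0.90) and for Igf1 Tada3 (0.88). Igfbp1 had no close companion, its highest r being 0.68 with Psd4. The highest of 13151 values is large by selection, and no test was made.

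**Figure D4:**
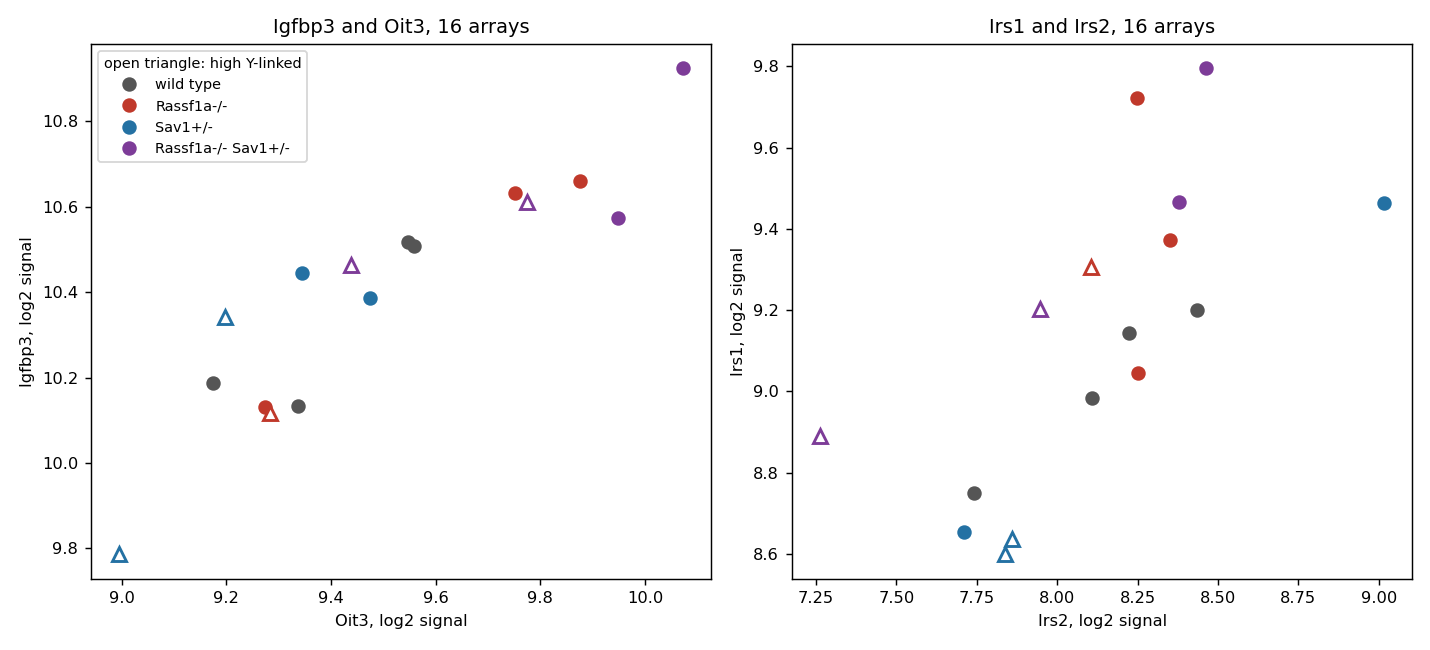
Left, log2 signals of Igfbp3 (vertical axis) and Oit3 (horizontal axis); right, of Irs1 (vertical) and Irs2 (horizontal), on the 16 arrays, coloured by genotype with open triangles for high Y-linked arrays. Igfbp3 and Oit3 lie along one line through all genotypes (r = 0.90), while Sav1+/- replicate 2 lies at the right of the Irs1 and Irs2 plot at 9.02.

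The genes around the axis were followed in lists chosen by function. Of 14 other IGF ligands, receptors and binding proteins, 9 were tested and 0 passed in any genotype comparison. Igf2, an embryonic ligand, was at 6.53 ± 0.31 in wild-type livers and Igf1r, the IGF1 receptor that adult hepatocytes largely lack, at 6.29 ± 0.35 (SD, n = 4), and neither passed the filter in the series. Of 27 tested genes downstream of the insulin receptor 0 passed in any genotype comparison. Of 12 tested genes of growth hormone signalling 0 passed. The smallest p-values there were those of the transcription factors Stat5a and Stat5b, which averaged over the Sav1 genotypes were 0.58 (SE 0.15, adjusted p = 0.0584) and 0.40 (SE 0.11, adjusted p = 0.0613) higher without Rassf1a. Over the 16 fits without 1 array Stat5a passed in 1 and Stat5b in 2, both without Sav1+/- replicate 2 (adjusted p = 0.0141 and 0.0172) and Stat5b also without Rassf1a-/- replicate 3. Each passed in 4 of 10 other settings, weighted arrays among them (0.0124 and 0.0143). With the high Y-linked arrays left out the adjusted p was 0.205 and 0.35.

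Single genes among the inhibitors of insulin signalling and the insulin targets passed in the averaged Rassf1a comparison, where 2.23% of all genes did, 231 of them higher and 62 lower. Of 13 tested inhibitors 2 rose, Pid1 and Grb14, and none fell. Pid1, which lowers insulin signalling in adipocytes, was lower where Rassf1a was intact, at 11.04 ± 0.07 in wild-type and 11.02 ± 0.31 in Sav1+/- livers (SD, n = 4). It was at 11.54 ± 0.15 in Rassf1a-/- and 11.69 ± 0.09 in doubly altered livers. Its averaged rise was 0.59 (SE 0.10, adjusted p = 0.00405), and it passed in all 16 fits without 1 array. Against wild type it rose by 0.65 in Rassf1a-/- Sav1+/- livers (adjusted p = 0.037, but 0.149 once the Y-linked mean was added) and was 0.50 in Rassf1a-/- livers (adjusted p = 0.149). Grb14, an adaptor that blocks the insulin receptor's kinase, rose by 0.48 on average (SE 0.12, adjusted p = 0.0472), a call that held in 2 of the 16 fits without 1 array.

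Of 14 tested insulin and FoxO1 targets, 1 rose and 2 fell in the averaged Rassf1a comparison (2.23% of all genes called). Pdk4, the kinase that spares glucose in fasting, rose by 1.14 (SE 0.20, adjusted p = 0.00479). Thrsp, a lipogenic gene induced by carbohydrate, fell by 1.49 (SE 0.18, adjusted p = 0.000118), and Angptl4, an inhibitor of lipoprotein lipase, fell by 0.79 (SE 0.14, adjusted p = 0.0059, but 0.0653 with the 5 high Y-linked arrays left out). Against wild type, Thrsp fell by 1.48 in Rassf1a-/- livers (adjusted p = 0.00678) and fell by 1.84 in doubly altered livers (adjusted p = 0.0017, but at the threshold, 0.05 when rounded, with the high Y-linked arrays left out). There Angptl4 also fell by 0.91 (adjusted p = 0.0403), a call that held in 6 of the 16 fits without 1 array. The comparisons with wild type share its 4 arrays. Clock genes moved in the same comparisons. Of 13 tested, 8 passed in Rassf1a-/- (0.7% of all genes), 9 in Rassf1a-/- Sav1+/- livers (0.821%) and 10 in the averaged comparison (2.23%). The part of the clock genes in these differences was not tested. The lists of clock genes, insulin targets and inhibitors were chosen with earlier results of these data known. Their counts are therefore descriptions and no test of the lists. None of the 10 genes of the axis itself was among the 293 genes called in the averaged comparison. As 2.23% of all genes were called there, this does not set the axis apart.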

How the data were processed

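The arrays gave 35556 probe sets, whose deposited log2 signals came from the authors' run of Affymetrix Expression Console, which the submitters' processing notes name. Version, background correction and normalization were not given in the sources used here. The platform annotation names 1 gene for 21789 probe sets, and 1621 with several genes were left out. Probe sets at or above the 40th percentile of an array on 4 or more arrays were kept, and the one of highest mean stood for its gene. The 13152 genes left were modelled in limma 3.58.1 under R 4.3.3, using lmFit and eBayes on 4 genotype means, which leaves 12 residual degrees of freedom. Tests were two-sided, p-values were adjusted by Benjamini-Hochberg over all genes tested, and calls were made under 0.05. The slope on the Y-linked mean had the genotype means as covariates, and a fit with an indicator of high Y-linked signal gave the differences between high and low arrays. Array weights came from limma's arrayWeights. Replicates were numbered in the order of the deposited samples. The 10 genes are always named; of each other list up to 4 genes of smallest p, and for each member the 3 most like it, may be named. The members and lists were chosen with earlier results of these data known. Promoter windows came from RefSeq (GRCm38.p6), which listed 9 of the 10 genes, Insr excepted. The fits were tested on simulated data. The number of arrays limits the precision.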

Additional observations from a re-analysis of the deposited data

Results flagged for a closer look

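Lone arrays were looked for in the 40 groups of 4 arrays (10 genes in 4 genotypes), by Dixon's test, which sets the gap to the nearest array against the group's whole range. Of these groups 5 held such an array, and chance gives about 1 in 20 groups. Sav1+/- replicate 2 was the highest of its genotype for Irs1 (9.46, next 8.65), Irs2 (9.02, next 7.86) and Insr (11.94, next 11.07). Sav1+/- replicate 3 was the lowest of its genotype for Igfbp3 (9.79, next 10.34). Rassf1a-/- replicate 2, the one Rassf1a-/- array of high Y-linked signal, was the lowest of its genotype for Igfals (10.87, next 11.49).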

How the results depend on the processing

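Each count of the 10 genes called and a chosen set of the gene differences named with a test were recomputed. This was done under up to 11 other settings and in 16 fits that left out 1 array each. No difference of the chosen set changed direction, but other differences of the 10 genes given above did, as counted below. The number of the 10 genes called stayed at 0 for the Sav1+/- and the Rassf1a-/- Sav1+/- comparison with wild type and for the interaction. With weighted arrays it was 1 for Rassf1a-/- against wild type (Igfbp4), 1 for the averaged Sav1 effect (Igfals, -0.54, adjusted p = 0.0239), 2 for any genotype difference (Irs1 and Igfals) and 2 for the slope on the Y-linked mean (Igfals and Igfbp1). The weights were lowest for Sav1+/- replicates 1 and 2, at 0.279 and 0.276. In the fits without 1 array, the count for the slope ran from 0 to 4. It was 0 without Rassf1a-/- replicate 2, Sav1+/- replicate 3 or Rassf1a-/- Sav1+/- replicate 1, and 4 without Sav1+/- replicate 1. The count for the averaged Rassf1a effect ran from 0 to 1, the latter without Sav1+/- replicate 2 (Irs1). Igfals passed for the slope in 12 of the 16 fits and in all 9 other settings. Pid1 in Rassf1a-/- Sav1+/- livers passed in 6 of the 16 fits and in 7 of the 11 settings; it did not without a filter (adjusted p = 0.081), with arrays centred on their medians (0.0776), with the Y-linked covariate (0.149) or with the high Y-linked arrays left out (0.35). Of the 60 differences of the 10 genes over 6 genotype comparisons, 27 kept their sign in all settings and fits and 33 turned it in at least 1, and 3 were called in at least 1. No paired analysis was possible because no replicate number stands in the labels. The cause of these changes was not tested.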
